A study of Mus musculus with 10 samples.

Results

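The 4 opioid receptor genes (*Oprm1*, *Oprd1*, *Oprk1* and *Oprl1*) and the 4 genes for opioid peptide precursors (*Penk*, *Pdyn*, *Pomc* and *Pnoc*) were followed in the dorsal root ganglia (DRG) of mouse embryos with and without *Dach1* in the neural crest. They were found by symbol among the 55414 genes listed in each count file, and all 8 had enough reads to be tested. The study used bulk RNA-sequencing of DRG at E18.5 to ask how gene expression in developing somatosensory neurons depends on *Dach1*. It describes Dach1 as a transcription factor related to the sno/ski corepressors. There were 5 control embryos, which carried floxed *Dach1* alleles and no Cre, and 5 *WD1* cKO embryos (*Wnt1*Cre/+; *Dach1* flox/flox), in which Cre is driven by *Wnt1* regulatory sequence in the neural crest. The floxed line had a mixed C57Bl/6J and CD1 background, controls were littermates, and which embryos shared a litter is not given in the sources used here. Neurons and glia of the DRG both derive from the neural crest, so the deletion is not limited to neurons, and ganglia were sequenced whole. In such bulk RNA, fewer cells of a type and less RNA per cell cannot be told apart.

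Opioid receptors are G protein-coupled receptors of the Gi/o class. In neurons they can close calcium channels, open inwardly rectifying potassium channels and lower cyclic AMP. On nociceptive terminals in the spinal dorsal horn they reduce transmitter release. *Oprm1* encodes the mu receptor, the main target of morphine, *Oprd1* the delta receptor, *Oprk1* the kappa receptor and *Oprl1* the nociceptin receptor, which binds classical opioids poorly. The peptides are cut from larger precursors: enkephalins mainly from *Penk*, dynorphins from *Pdyn*, beta-endorphin from *Pomc* and nociceptin from *Pnoc*.

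The precursors differ in how often they encode the short core with which an opioid peptide begins, and the codons of these cores show that a read of *Penk* and a read of *Pnoc* stand for different peptides. In the reference coding sequences (GENCODE annotation of GRCm38), *Penk* held 6 cores of the Met-enkephalin kind, which end in methionine, and 1 of the Leu-enkephalin kind, which ends in leucine. *Pdyn* held 3 cores of the Leu kind and *Pomc* held 1 of the Met kind. *Pnoc* held 1 core of its own kind, which begins with phenylalanine in place of the tyrosine of the others and ends in threonine. A core of each kind from each gene is printed from its coding strand, with the first and the last codon, where the kinds of core differ, in capitals. In *Penk* these are the first Met core, in exon 2 on the minus strand (chr4:4134334-4134348), and the Leu core of the same exon (chr4:4133941-4133955). The *Pdyn* core lies in exon 4 on the minus strand (chr2:129688238-129688252), the *Pomc* core in exon 3 on the plus strand (chr12:3960373-3960387) and the *Pnoc* core in exon 3 on the minus strand (chr14:65404878-65404892).
Penk, Met core: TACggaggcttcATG
Penk, Leu core: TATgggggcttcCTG
Pdyn, Leu core: TATggcggctttTTG
Pomc, Met core: TACggtggcttcATG
Pnoc, nociceptin core: TTTgggggcttcACC

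Libraries held 19757596 to 34796562 counted reads. Counts of the targeted gene were 719, 872, 884, 1008 and 850 for *Dach1* in control replicates 1 to 5 and 454, 546, 589, 399 and 708 in *WD1* cKO replicates 1 to 5, a log2 fold change of -0.92 (SE 0.050, edgeR quasi-likelihood test, adjusted p = 5.48e-06, n = 5 per group). The count covers the whole gene, of which exon 2 is floxed. Groups follow the sample titles, and the genotype entry of the labels names the opposite group for each sample, against the *Dach1* counts. DRG neuron markers (*Isl1*, *Prph*, *Tubb3* and 5 others) summed to 7188 to 7748 scaled counts (CPM, reads relative to library size) in control and 7336 to 7674 CPM in *WD1* cKO embryos, and glial markers to 789 to 932 and 786 to 974 CPM. By edgeR, 0 genes of these lists had an adjusted p and 0 an unadjusted p under 0.05.

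No difference between the groups was called in any of the 8 genes. Over all 17490 genes tested, 0.0400% had an adjusted p under 0.05, and 0 of the 8 genes had one by edgeR (adjusted p = 1.00 each) or by DESeq2 (adjusted p = 1.00 each). At an unadjusted p under 0.05, which 4.50% of all genes reached, the count was again 0 of 8 by both tools. This last count moved with the fit: it was 2 of 8 (*Oprk1* and *Pnoc*) with the replicate number as a block, against 7.10% of all genes, and the same 2 with a term for numbers 4 and 5, against 7.33%. It was 1 (*Pdyn*) without the filter on low counts, against 4.03% of all genes. With 1 library left out it was 1 without control replicate 1 (*Pdyn*), against 4.62% of all genes. Without control replicate 2 it was 2 (*Pdyn* and *Pnoc*), against 4.24%, and without control replicate 5 it was 1 (*Oprk1*), against 5.55%. In the other 7 fits it was 0, against 3.70% to 5.28%. *Oprk1* and *Pnoc* were higher in the *WD1* cKO library than in the control library of the same number in 5 of 5 numbers. For *Oprd1*, *Oprl1* and *Pomc* this held in 4 of 5, for *Pdyn* in 3 and for *Oprm1* and *Penk* in 1. The share of all genes at 5 of 5 was not counted, and the numbers were not taken as pairs. The study's cut-off, an unadjusted p under 0.005 together with a log2 fold change beyond 0.15 in either direction, was passed by 0.383% of all genes and by 0 of the 8. In 1.06% of all genes the CPM of the groups did not overlap, and in each of the 8 genes they overlapped. Exact permutation tests of mean log2 CPM gave two-sided p-values from 0.111 for *Pnoc* to 0.516 for *Pomc*, which over the 8 tests were all 0.516 after Benjamini-Hochberg adjustment. The 95% intervals of the differences were narrow for *Oprd1*, *Oprl1* and *Oprm1* and wide for *Pdyn*, *Pomc* and *Pnoc*, as the plot of fold changes shows.

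**Figure D1:**
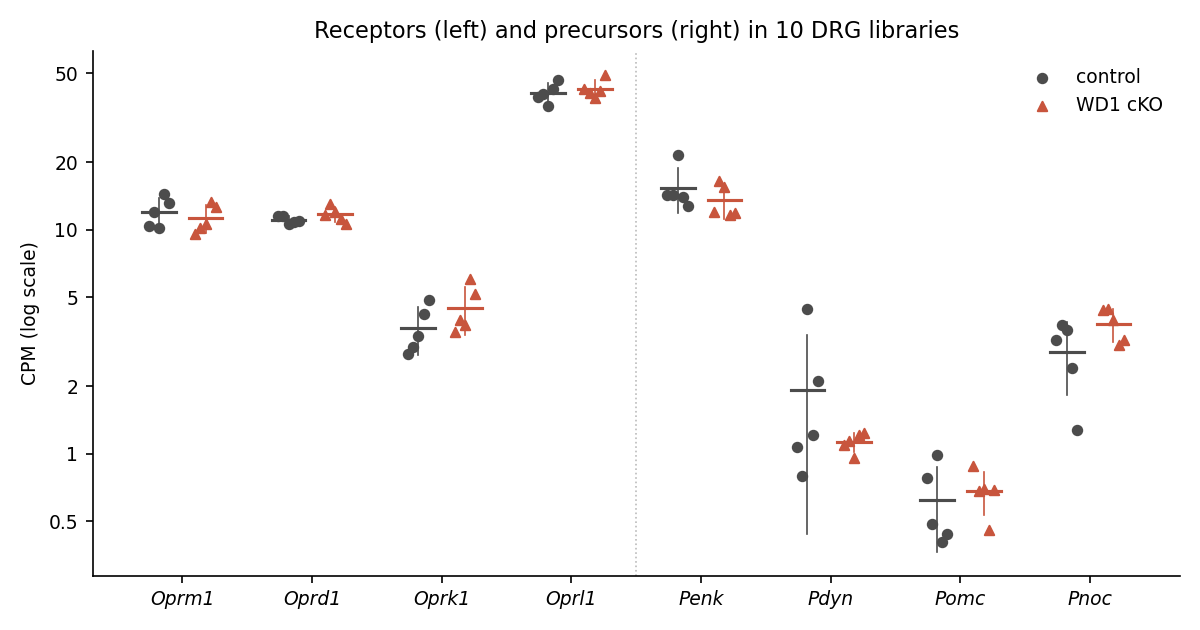
CPM on a log axis for the 4 receptors (left) and the 4 precursors (right) in each of 5 control (circles) and 5 *WD1* cKO libraries (triangles), in order of replicate number from left to right, with the group mean as a bar and the SD as a line. The groups overlap in every gene, and *Pdyn* has a control library at 4.42 CPM above all others.

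Among the receptors, *Oprl1* had the most reads, and its SD was 10.1% of the mean in control and 9.33% in *WD1* cKO embryos. It stood at 39.3, 40.2, 35.5, 42.4 and 46.7 CPM in control replicates 1 to 5 and at 42.5, 40.6, 38.8, 41.7 and 49.2 CPM in *WD1* cKO replicates 1 to 5. Replicate 5 was the highest library and replicate 3 the lowest in both groups. The mean was 40.8 ± 4.11 CPM in control and 42.6 ± 3.97 CPM in *WD1* cKO embryos (SD, n = 5 each), a log2 fold change of 0.060 (SE 0.077, exact permutation p = 0.492). The ratio of *WD1* cKO to control was 1.04 with a 95% interval from 0.928 to 1.17. Without *WD1* cKO replicate 5 the log2 fold change was -0.0017.

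*Oprm1*, the mu receptor, was at 10.42, 11.98, 10.15, 14.48 and 13.14 CPM in the control libraries and at 9.59, 10.17, 10.62, 13.35 and 12.57 CPM in *WD1* cKO libraries. The highest values came from replicates 4 and 5 in both groups, and 1 of 5 *WD1* cKO libraries lay below every control. The log2 fold change was -0.10 (SE 0.118, exact permutation p = 0.5), with a ratio of 0.933 and a 95% interval from 0.781 to 1.11. Of its 8037 exonic bases, 96 overlap *Ipcef1* on the opposite strand.

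*Oprd1*, the delta receptor, varied least of the 8 genes among the control libraries, with an SD of 3.82% of the mean. Its values were 11.54, 11.50, 10.58, 10.84 and 10.94 CPM in control and 11.65, 13.05, 12.01, 11.22 and 10.64 CPM in *WD1* cKO embryos, and 3 of 5 *WD1* cKO libraries exceeded every control. The log2 fold change was 0.080 (SE 0.066, exact permutation p = 0.206), a ratio of 1.06 (95% interval 0.957 to 1.17). The SD of the controls was below the 6.31% that counting error gives at their 225 to 295 reads, and that of *WD1* cKO libraries, 7.74%, was above their 5.75%.

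*Oprk1*, the kappa receptor, had the fewest reads of the receptors, 57 to 180 per library. It was at 2.78, 3.00, 3.34, 4.19 and 4.88 CPM in control and at 3.49, 3.95, 3.77, 6.04 and 5.19 CPM in *WD1* cKO embryos. Replicates 4 and 5 were again the highest of each group, and 2 of 5 *WD1* cKO libraries exceeded every control. The log2 fold change was 0.29 (SE 0.188, exact permutation p = 0.183), and the 95% interval of the ratio, from 0.924 to 1.63, is wider than for the other receptors. Leaving out 1 library at a time moved the log2 fold change between 0.17, without *WD1* cKO replicate 4, and 0.42, without control replicate 5.

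*Penk*, the enkephalin precursor, was the most abundant precursor. Its CPM was 14.22, 14.27, 21.62, 14.001 and 12.74 in control replicates 1 to 5 and 12.03, 16.50, 15.48, 11.57 and 11.91 in *WD1* cKO replicates 1 to 5. Control replicate 3 stood above all other libraries, while 3 of 5 *WD1* cKO libraries lay below every control. The mean was 15.4 ± 3.55 CPM in control and 13.5 ± 2.31 CPM in *WD1* cKO embryos (SD, n = 5 each), a log2 fold change of -0.18 (SE 0.149, exact permutation p = 0.349) and a ratio of 0.881 (95% interval 0.703 to 1.10). Without control replicate 3 the log2 fold change was -0.030. In 14.3% of its 1634 exonic bases *Penk* overlaps *A830012C17Rik* on the opposite strand, which had a mean of 3.40 reads in control and 2.60 in *WD1* cKO embryos.

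Within each group, markers of connective tissue were highest in the libraries in which *Penk* was highest. The summed level of the 8 connective tissue genes (*Col1a1*, *Dcn*, *Pdgfra* and 5 others) was 5834 CPM in control replicate 3 and 4191 to 4530 CPM in the other controls. Within *WD1* cKO embryos it was 5332 and 5447 CPM in replicates 2 and 3 and 4634 to 4908 CPM in the rest. Between the groups the levels went opposite ways, as *WD1* cKO replicates 1, 4 and 5 had more of these markers than control replicates 1, 2, 4 and 5. Their *Penk* was lower, at 11.57 to 12.03 CPM against 12.74 to 14.27 CPM. All 8 connective tissue genes had a positive log2 fold change by edgeR, from 0.040 to 0.25, as did 50.1% of all genes. Of the 8 connective tissue genes, 1 (*Lum*) had an unadjusted p under 0.05, against 4.50% of all genes. The part of connective tissue in the level of *Penk* was not tested.

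*Pdyn*, the dynorphin precursor, had the largest fold change of the 8 genes, and it rested on control replicate 3. The CPM was 1.07, 0.793, 4.42, 1.21 and 2.11 in control and 1.09, 1.14, 0.959, 1.22 and 1.24 in *WD1* cKO embryos, from 18 to 94 reads per library. The 94 reads of control replicate 3 have an exact Poisson 95% interval of 3.57 to 5.41 CPM, which covers counting error only and lies above the value of every other library. No *WD1* cKO library lay outside the range of the controls. The log2 fold change was -0.76 (SE 0.398, exact permutation p = 0.373), the ratio was 0.593 (95% interval 0.325 to 1.08), and 98.1% of genes tested had a smaller standard error. Without control replicate 3 the log2 fold change was -0.20, and with both libraries numbered 3 left out it was -0.14 (adjusted p = 1.00 by edgeR in both).

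**Figure D2:**
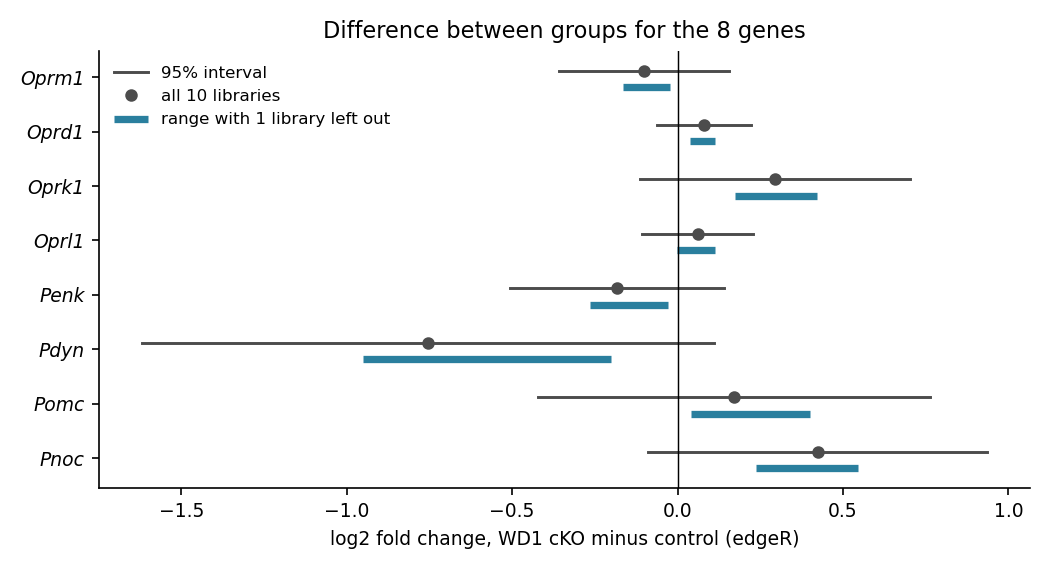
Log2 fold change of *WD1* cKO minus control for the 8 genes from edgeR, with all 10 libraries (points) and its 95% interval (thin lines), and the range over the 10 fits that leave out 1 library each (thick bars). Every 95% interval includes 0, and the bar of *Pdyn* runs from -0.95 to -0.20.

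Spinal cord markers were highest in control replicate 3. Of 12 spinal cord markers, 9 were highest in this library, among them *Gad1* at 7.71 CPM, *Slc6a5* at 4.65 CPM and *Pax2* at 3.81 CPM, which mark inhibitory neurons. The 12 together summed to 72.2 CPM there, against 28.8 to 39.98 CPM in the other controls and 28.5 to 33.9 CPM in *WD1* cKO embryos. Most of the sum elsewhere is *Tlx3*, which sensory neurons also express. The other 11 markers, a subset taken after their values were seen, summed to 35.5 CPM in control replicate 3, to 1.84 to 2.63 CPM in the other controls and to 1.81 to 3.70 CPM in *WD1* cKO libraries, and 8 of them had 0 reads in at least 1 other library. *Mnx1*, a motor neuron marker, had 0 reads in control replicate 3. *Pdyn* and *Penk* are both known to be expressed in dorsal horn neurons, and the part of spinal cord RNA in their level in this library was not tested. In control replicate 5, the library with the next highest *Pdyn*, the 11 markers summed to 2.37 CPM.

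**Figure D3:**
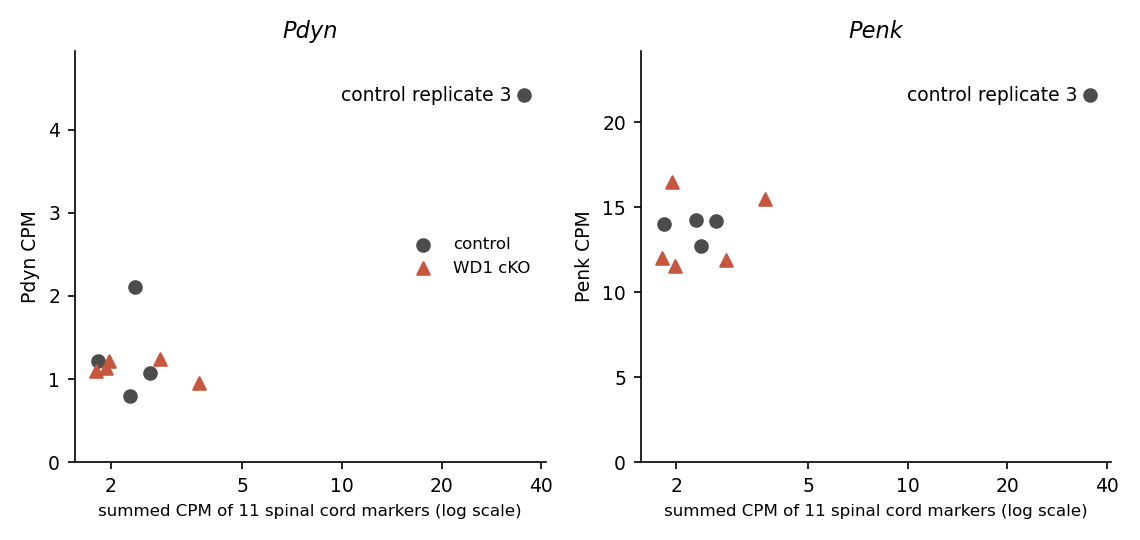
CPM of *Pdyn* (left) and *Penk* (right) against the summed CPM of 11 spinal cord markers on a log axis, 1 point per library, for 5 control (circles) and 5 *WD1* cKO embryos (triangles). Control replicate 3 lies apart on both axes, at 35.5 CPM of markers with 4.42 CPM of *Pdyn* and 21.6 CPM of *Penk*, and the other 9 libraries lie between 1.81 and 3.70 CPM of markers.

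*Pomc*, the precursor of beta-endorphin and of several non-opioid hormones, had the fewest reads, 9 to 24 per library. It was at 0.779, 0.485, 0.987, 0.404 and 0.439 CPM in control and at 0.883, 0.683, 0.695, 0.457 and 0.692 CPM in *WD1* cKO embryos, with all *WD1* cKO values inside the range of the controls. The log2 fold change was 0.17 (SE 0.273, exact permutation p = 0.516), with a 95% interval of the ratio from 0.746 to 1.70. With 1 library left out it ran from 0.041, without control replicate 4, to 0.40, without control replicate 3. The SD was 41.0% of the mean in control, above the 27.998% of counting error, and 22.2% in *WD1* cKO libraries, below their 24.6%. Markers of pituitary and melanocytes summed to 2.69 to 3.25 CPM in control and 2.82 to 3.35 CPM in *WD1* cKO embryos, and 1 of the 6 passed the filter on low counts. This was *Mitf*, which made up most of the sum, with a mean of 2.76 CPM in control and 2.83 CPM in *WD1* cKO embryos. Of the others, *Pitx1* had the highest mean, 0.133 CPM in control.

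*Pnoc*, the nociceptin precursor, was at 3.21, 3.74, 3.57, 2.43 and 1.27 CPM in control and at 4.38, 4.44, 3.94, 3.05 and 3.23 CPM in *WD1* cKO embryos. Control replicate 5 was the lowest library, and 3 of 5 *WD1* cKO libraries exceeded every control. The mean was 2.85 ± 1.01 CPM in control and 3.81 ± 0.643 CPM in *WD1* cKO embryos (SD, n = 5 each), a log2 fold change of 0.42 (SE 0.236, exact permutation p = 0.111) and a ratio of 1.34 (95% interval 0.941 to 1.91). It was 0.24 without control replicate 5 and 0.54 without control replicate 2.

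The libraries numbered 4 and 5 differed from those numbered 1 to 3 in both groups, a split seen after the values were examined. *Oprm1* and *Oprk1* were higher in numbers 4 and 5 in both groups, *Penk* and *Pnoc* were lower, and the other 4 genes did not separate the same way in both. Over all genes tested, 8.24% were higher and 7.13% lower in numbers 4 and 5 in both groups. Blood and immune markers summed to 1006 to 2374 CPM in control replicates 1 to 3 and 175 to 206 CPM in 4 and 5, and to 494 to 1062 CPM and 199 to 250 CPM in *WD1* cKO embryos. Globin genes made up most of the control sum, with means of 236 (*Hba-a1*), 588 (*Hbb-bs*) and 177 CPM (*Hbb-bt*). Over all 10 libraries the immune genes ran from 2.65 to 3.64 CPM (*Ptprc*), 3.11 to 5.29 CPM (*Cd68*) and 19.7 to 23.9 CPM (*Csf1r*). The labels name no batch. With the number set as a term in the fit, the log2 fold change was 0.30 for *Oprk1* (adjusted p = 0.533 by edgeR) and 0.44 for *Pnoc* (adjusted p = 0.565 by edgeR), and no adjusted p of the 8 genes fell under 0.05.

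Levels of different genes were compared as CPM per kilobase of exon (union of all exons). *Oprl1* was highest, at 10.9 ± 1.09 in control and 11.3 ± 1.06 in *WD1* cKO embryos (SD, n = 5 each), and 72.6% of genes had a lower level in control. *Penk* followed at 9.41 ± 2.17 and 8.26 ± 1.41, then *Oprd1* at 2.76 ± 0.105 and 2.91 ± 0.225. *Pnoc* (1.32 ± 0.470 and 1.76 ± 0.298) and *Oprm1* (1.497 ± 0.227 and 1.401 ± 0.201) came next. *Pomc* (0.470 ± 0.193 and 0.517 ± 0.115), *Pdyn* (0.665 ± 0.513 and 0.391 ± 0.0388) and *Oprk1* (0.397 ± 0.0960 and 0.490 ± 0.118) were the lowest, and 10.8% of genes were below *Oprk1* in control. Among the receptors *Oprl1* made up 70.0% ± 1.07 of the summed level per kilobase in control and 70.2% ± 2.21 in *WD1* cKO embryos, and *Penk* made up 79.7% ± 2.51 and 75.4% ± 2.96 of that of the precursors (SD, n = 5 each). These shares depend on the length and were computed with the union of exons only. With the longest transcript as the length, control means were 13.2 for *Oprl1*, 4.97 for *Oprm1*, 2.76 for *Oprd1* and 0.778 for *Oprk1*.

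Of the 7 pairs of neighbours in this order, 4 differed in a two-sided exact sign-flip permutation test of the difference within each of the 10 libraries. *Penk* exceeded *Oprd1* by 1.62 ± 0.278, *Oprd1* exceeded *Pnoc* by 0.95 ± 0.489 and *Oprm1* exceeded *Pomc* by 1.60 ± 0.641 on the log2 scale (SD, n = 10), in 10 of 10 libraries each, with an adjusted p of 0.00456 in the exact test. *Oprl1* exceeded *Penk* by 0.35 ± 0.385 in 9 of 10 libraries (exact adjusted p = 0.0410), and with 1 library left out the adjusted p rose to as much as 0.0820, staying under 0.05 only without control replicate 3. *Pnoc* and *Oprm1*, *Pomc* and *Pdyn*, and *Pdyn* and *Oprk1* did not differ beyond their spread (exact adjusted p = 0.908 each). The place of *Oprm1* depends on its length, since its exons together span 8037 bases and its longest annotated transcript 2420. With the longest transcript as the length, *Oprm1* stood at 4.97 ± 0.755 in control and 4.65 ± 0.668 in *WD1* cKO embryos, next after *Penk* and above *Oprd1* by 0.75 on the log2 scale in 10 of 10 libraries (exact adjusted p = 0.00456).

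**Figure D4:**
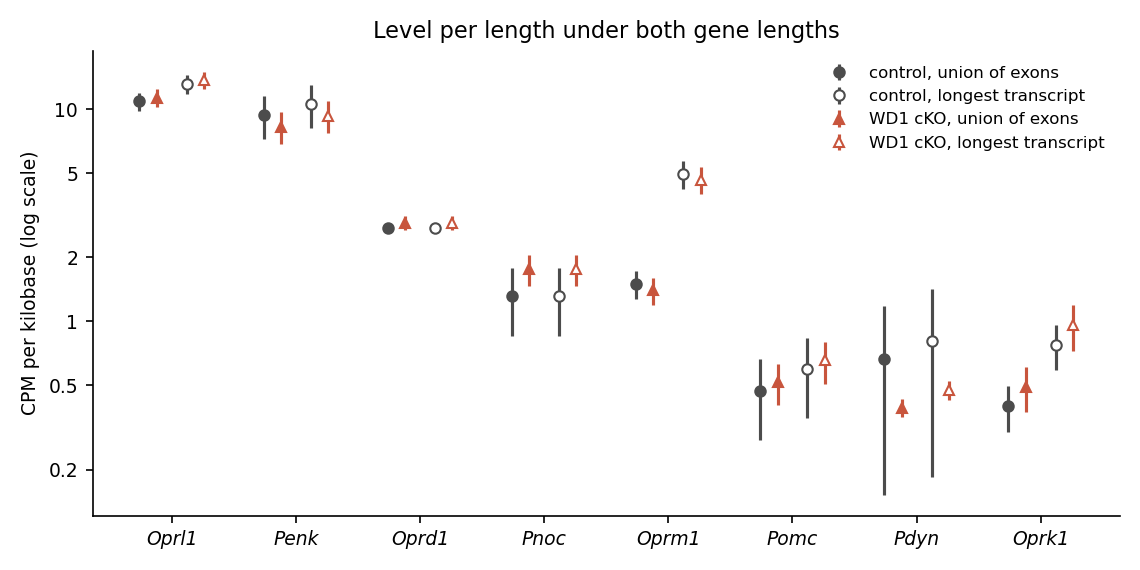
Mean CPM per kilobase on a log axis for the 8 genes in order of level, for control (circles) and *WD1* cKO embryos (triangles), with the length taken as the union of exons (filled) or the longest transcript (open), and the SD over 5 libraries as lines. *Oprl1* and *Penk* are highest under both lengths, and *Oprm1* moves from 1.497 to 4.97 in control.

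Genes that make, break down or transmit the signal of opioid peptides were counted in 5 lists of 71 genes, of which 69 were tested. *Kcnj5* and *Kcnj6*, potassium channel subunits, fell under the filter. By edgeR, 0 of the 69 had an adjusted p under 0.05 (1 by DESeq2), and 3 of 69 (4.35%) had an unadjusted p under 0.05, against 4.50% of all genes tested. The median log2 fold change over the 69 was -0.011, with 30 positive and 39 negative, and over all genes it was 0.00022.

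The gene with the smallest p was *Mme*, which encodes neprilysin, a membrane peptidase that cleaves enkephalins and other small peptides. Its CPM was 39.3, 39.6, 29.8, 37.5 and 33.6 in control replicates 1 to 5 and 51.1, 46.5, 47.2, 55.2 and 54.7 in *WD1* cKO replicates 1 to 5. The groups did not overlap, as was the case for 1.06% of all genes tested. The mean was 36.0 ± 4.21 CPM in control and 50.9 ± 4.08 CPM in *WD1* cKO embryos (SD, n = 5 each), a log2 fold change of 0.50 (SE 0.081, adjusted p = 0.0807 by edgeR). It missed the adjusted threshold in this fit, and over the alternatives the adjusted p ran from 1.36e-05 with DESeq2 to 0.278 without *WD1* cKO replicate 4. It fell under 0.05 with DESeq2, without the filter on low counts (0.00591), with the replicate number as a block (0.0429) and with the number set as a term (0.0412). *Mme* also passed the study's cut-off, as the sole gene of the 69, against 0.383% of all genes tested. The other 9 genes of the breakdown list, among them the aminopeptidase gene *Npepps* and the angiotensin-converting enzyme gene *Ace*, had no unadjusted p under 0.05, and the lowest log2 fold change was that of *Dpp3*, at -0.043 (SE 0.035).

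Precursor processing genes include the convertases *Pcsk1* and *Pcsk2*, which cut at paired basic residues, and the carboxypeptidase *Cpe*. None of the 10 had an unadjusted p under 0.05. Their log2 fold changes ran from -0.038 for *Ctsl*, cathepsin L (SE 0.062), to 0.33 for *Scg5*, the chaperone of the convertase encoded by *Pcsk2* (SE 0.281).

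Among 22 G proteins and regulators, 2 (9.09%) had an unadjusted p under 0.05, against 4.50% of all genes tested. *Gnai2*, an inhibitory G protein subunit, had a log2 fold change of -0.16 (adjusted p = 1.00 by edgeR) and *Rgs9*, which speeds the return of such subunits to rest, had -0.25 (adjusted p = 1.00 by edgeR). The highest value was that of *Rgs17*, at 0.055 (SE 0.079). Of the 16 effectors tested, among them adenylyl cyclases and potassium channels, none had an unadjusted p under 0.05, with log2 fold changes from -0.25 for *Kcnj9*, a potassium channel subunit (SE 0.205), to 0.098 for *Creb1* (SE 0.049). The 11 genes of receptor sorting and atypical receptors likewise had none, from -0.058 for *Rtp4*, a receptor chaperone (SE 0.427), to 0.064 for *Gpr139* (SE 0.073).

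**Figure D5:**
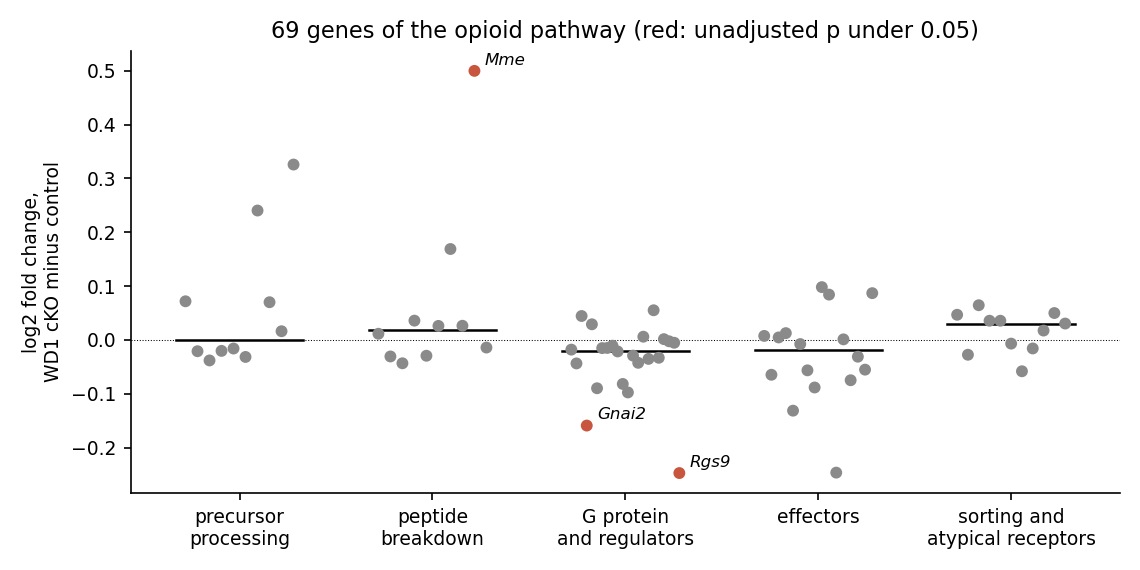
Log2 fold change of *WD1* cKO minus control for the 69 pathway genes tested, in 5 lists, 1 point per gene in alphabetical order within a list, with the median of each list as a bar and genes with an unadjusted p under 0.05 in red. *Mme* stands apart at 0.50, and *Gnai2* and *Rgs9* are at -0.16 and -0.25.

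For each of the 8 genes, the genes whose CPM was most like it over the 10 libraries were taken from 13883 genes by Pearson correlation of log2(CPM + 0.5). The nearest was *Ly6a* for *Oprm1* (r = 0.953), *Rhoa* for *Oprd1* (r = 0.891), *Itih5* for *Oprk1* (r = 0.970) and *Got1* for *Oprl1* (r = 0.969). For the precursors it was *Mmp14*, a metalloproteinase of connective tissue, for *Penk* (r = 0.976), *Pcdhgc4* for *Pdyn* (r = 0.956), *Timm29* for *Pomc* (r = 0.941) and *Ubtd2* for *Pnoc* (r = 0.956). These are the highest of many values over libraries that share the number sets described above, and are given as a description. Without the 2 libraries farthest from the median of each gene, the r fell to 0.621 for *Pdyn* with control replicates 3 and 5 left out, and was 0.838 or higher for the other 7 genes.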

How the data were processed

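Bulk mRNA of E18.5 DRG was measured in 5 control and 5 *WD1* cKO libraries, made with a stranded kit. The authors used STAR 2.7.8a (GRCm39) and featureCounts 2.0.1, and deposited raw counts per gene without normalization. The strand setting of the counting is not given in the sources used here, so genes that overlap on opposite strands are uncertain. Symbols (52133 of 55414 identifiers), chromosomes and exon lengths came from GENCODE M21 (GRCm38).

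In R 4.3.3, the filter kept the 17490 genes that reached 10 counts in 5 or more libraries. edgeR 4.0.16 (TMM, quasi-likelihood test, no covariate, Benjamini-Hochberg over these genes) compared the groups, and CPM used the TMM library sizes. Exact permutation tests were two-sided, on log2 CPM (prior count 1). No 2 libraries of a group agreed within sampling noise (chi-square over its degrees of freedom between 4.36 and 15.0).

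The 8 genes, *Dach1*, pathway genes with an unadjusted p under 0.05, and the highest and lowest of each pathway list were named, and *Ace*, *Npepps*, *Cpe*, *Pcsk1* and *Pcsk2* as examples. Members, lists and tests were chosen with earlier results of these data known. The scripts were tested on simulated data. Alternatives were DESeq2 1.42.0, its size factors, other filters, a replicate block, other prior counts, another gene length and libraries left out.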

Additional observations from a re-analysis of the deposited data

Results flagged for a closer look

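The CPM of *Penk* in control replicate 3, 21.6, lay far from the other 4 control libraries, with a gap to the nearest of them that was 0.828 of the range of the group, above the critical share of 0.71 for 5 samples. Of 16 groups examined (8 genes in 2 groups), 1 was beyond that limit, where chance gives 0.8. Its fold change without that library is given in the report.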

How the results depend on the processing

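None of the 8 genes had an adjusted p under 0.05 in any alternative that tested it; with a mean count of at least 100, *Pdyn*, *Pomc* and *Pnoc* were not tested. The count of genes with an adjusted p under 0.05 over all genes was 7, and it was 19 with DESeq2, 4 with a mean count of at least 100, 4 without both libraries numbered 3, 11 with the number set as a term (chosen after seeing the data) and 3 to 6 with 1 library left out. Pathway genes with an unadjusted p under 0.05 numbered 3 (4.50% of all genes), 5 without the filter (4.03%) and 8 with the replicate block (7.10%). They numbered 1 without both libraries numbered 3 (3.30%) and 7 with the number set as a term (7.33%). With 1 library left out they numbered 1 to 6 (3.70% to 5.55% of all genes). Deviations of same-numbered libraries correlated at 0.328, 0.0046, 0.347, 0.356 and 0.408 for numbers 1 to 5, and 5 of 10 libraries correlated best with their own number. As number 2 was near 0 and the labels name nothing shared, the numbers were not taken as pairs. The replicate block gave 8 genes with an adjusted p under 0.05, and *Oprk1* and *Pnoc* had an unadjusted p under 0.05 (adjusted p = 0.629 each by edgeR).

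Leaving out 1 library reversed the log2 fold change of *Oprl1* (-0.0017 to 0.11) and the order of the neighbours that did not differ, with log2 differences of -0.052 to 0.20 for *Pnoc* over *Oprm1*, -0.13 to 0.18 for *Pdyn* over *Oprk1* and -0.051 to 0.17 for *Pomc* over *Pdyn*. With the longest transcript as the length, *Pnoc* over *Oprm1* was -1.70 and *Pdyn* over *Oprk1* was -0.60. In control libraries alone, *Pnoc* over *Oprm1* was -0.27 and *Pomc* over *Pdyn* was -0.30, and 0 pairs of neighbours passed, since 5 libraries cannot give an exact sign-flip p under 0.0625. Counting error was 27.998% of the mean for *Pomc* and 18.04% for *Pdyn* in control, where their SDs were 41.0% and 77.1%. In *WD1* cKO libraries the SDs of both genes were below their counting error. Whether the spread in control exceeds what depth gives was not tested.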
